A study of Mus musculus with 48 samples.

Results

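Lysosomal proteases and membrane proteins were followed across 48 single cells of the mouse inner cell mass (ICM) at E3.75. The members are 10 genes named by symbol, out of 49671 genes in the count table, and were chosen with earlier results of these data known. They include the cysteine cathepsins Ctsl, Ctsb, Ctsz, Ctsh and Ctsc and the aspartic cathepsin Ctsd. The others are the serine carboxypeptidase Ctsa, the asparaginyl endopeptidase Lgmn, and the membrane glycoproteins Lamp1 and Lamp2. All 10 had a count in at least 1 cell, and 9 of them passed a filter on low values (mean log2(FPKM + 1) above 1). Ctsh did not pass.

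Lysosomes are acidic organelles in which proteins, lipids and glycans that arrive by endocytosis or autophagy are broken down. Cathepsins are made as inactive precursors, are sorted to the lysosome by receptors that bind mannose 6-phosphate, and become active when their propeptide is cleaved at low pH. Some of them, cathepsin L among them, are also secreted and can cut the extracellular matrix. Primitive endoderm cells deposit the matrix of the basement membrane between themselves and the epiblast, and their descendants in the yolk sac endoderm take up and degrade maternal nutrients.

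The ICMs were isolated by immunosurgery from 3 blastocysts of an intercross of PDGFRa::H2B-GFP/+ mice with C57BL/6JxCBA/J F1 mice, obtained by natural mating. The reporter is a nuclear GFP knocked into 1 Pdgfra allele, so that Pdgfra-positive primitive endoderm precursors can fluoresce, and no cell received any treatment. Sequencing used Smart-seq2, which copies whole transcripts and keeps neither molecular identifiers nor the strand. By the 2 branches of the study's dendrogram, 25 cells are epiblast precursors (pEPI) and 23 are primitive endoderm precursors (pPrE).

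No label gives the embryo of a cell, so the 48 cells are 1 sample without replicates. SDs describe the spread between cells, no p-value was computed, and since the branches were drawn from the expression of these same cells, every difference between them is a description. Levels are FPKM (counts per kilobase of exon, scaled to the size of the library), and a log2 ratio is that of the mean FPKM in pPrE over the mean in pEPI. The ratio was also computed within each of the 6 well letters, which hold 8 cells each. The letters are not replicates: in 3 of them every cell had counts on Y-linked genes, in 1 no cell did and 2 were mixed, so they follow the split by Y-linked counts described below. A cell had between 1718970 and 7342785 counts in all. Of 9 pEPI markers, 7 were lower in pPrE by a log2 ratio of at least 0.5, among them Nanog (-2.85) and Fgf4 (-3.80), while Gdf3 (-0.42) and Bmp4 (0.17) were not. All 9 pPrE markers that passed the filter, of 12, were higher, among them Gata4 (3.33), Sox17 (3.31) and Pdgfra (1.47). Of 10 trophectoderm markers, Fabp3 had a count in 47 cells, Krt8 in 46, Tfap2c in 38 and Eomes in 22, while Cdx2 had a count in 3 cells and Krt7 in 1. The summed level of all 10, most of it Fabp3 and Krt8, ranged from 3.76 to 850 FPKM in pEPI and from 31.7 to 781 FPKM in pPrE cells, and its part in the results below was not tested.

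Many lysosomal genes carry the E-box CACGTG near their start, often within GTCACGTG. The longer motif is part of the sequence bound by TFEB and TFE3, transcription factors of lysosomal genes. RefSeq start sites (GRCm38.p6) were found for 8 members: Ctsa, Ctsz, Ctsc, Ctsd, Lamp1, Lgmn, Ctsl and Lamp2, with 2 start sites each for Ctsa and Lgmn. CACGTG occurred in a window of 300 bases around the start, most of it upstream, in 5 of these 8 genes, against 8.09% of all 27025 genes, and GTCACGTG on either strand occurred in 4, against 2.55%. The matches are shown here for the 5 genes that had one. Lamp1 had 4 boxes, Ctsd and Ctsa 2 each, and Lgmn and Ctsl 1 each. Of these genes only Ctsl lacked the flanking bases of the longer motif. All runs read 5′ to 3′ on the strand of the gene, and capitals mark CACGTG, which reads the same on both strands.
Lamp1 (chr8:13159088-13159160, plus strand, up to the base before the start): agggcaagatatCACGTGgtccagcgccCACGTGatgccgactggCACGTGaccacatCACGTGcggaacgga
Ctsd, distal box (chr7:142388055-142388077, minus strand): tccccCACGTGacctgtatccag
Ctsd, proximal box (chr7:142387908-142387937, minus strand): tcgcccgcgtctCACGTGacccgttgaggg
Ctsa, second start site (chr2:164833757-164833786, plus strand): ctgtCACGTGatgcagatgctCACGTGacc
Lgmn, second start site (chr12:102439124-102439153, minus strand): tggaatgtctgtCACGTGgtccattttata
Ctsl (chr13:64370739-64370768, minus strand): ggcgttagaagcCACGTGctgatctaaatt

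Counted from the start site, with bases before it negative, the boxes of Lamp1 begin at -61, -45, -28 and -15. Only 8 of the 32851 windows (0.0244%) held 4 or more. Those of Ctsd begin at -245 and -98, those of Ctsa at -12 and 5, that of Lgmn at -49 and that of Ctsl at -236. The proximal box of Ctsd lies inside an exon of a longer Ctsd transcript in GENCODE, so it is upstream only of the RefSeq start. The boxes of Ctsl, Ctsa and Lgmn also lie inside the span of their genes in GENCODE. Those of Ctsa and Lgmn lie after the first RefSeq start site of the gene. No match was found in the windows of Ctsz, Ctsc and Lamp2. The 5 genes with a box did not share a direction between the branches, as the values below show, and a match of letters does not show that a factor binds there.

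Between the branches, Ctsl was 2.60-fold higher in pPrE, while Ctsd was 1.47-fold and Ctsc 1.83-fold higher in pEPI. Each of these kept its direction within all 6 well letters, as did Lamp2, which was lower in pPrE. Even so, Ctsd and Ctsc had ratios near 0 over all cells without Y-linked counts. Of the 9 members that passed the filter, 2 were higher in pPrE by a log2 ratio of at least 0.5 (Ctsl and Ctsz), against 11.7% of the 8929 genes that passed. 3 were lower (Ctsd, Ctsc and Lamp2), against 15.3%, and 4 lay between. The median ratio of the 9 was 0.04, beside 0.01 over all genes. At a log2 ratio of at least 1, only Ctsl remained, against 3.62% of genes higher and 5.6% lower.

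**Figure D1:**
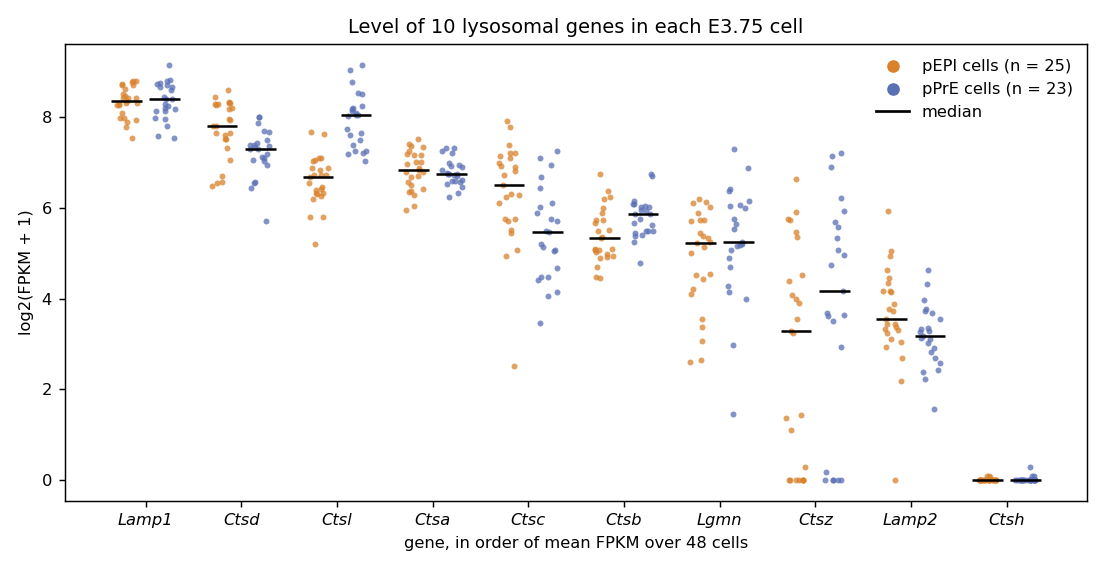
Each point is 1 cell, with log2(FPKM + 1) on the vertical axis and the 10 genes on the horizontal axis in order of mean FPKM; orange points are 25 pEPI cells, blue points 23 pPrE cells and black bars medians. The pPrE cells lie above most pEPI cells for Ctsl and below most of them for Ctsd and Ctsc, while Lamp1 and Ctsa overlap throughout and Ctsh lies at or near 0.

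Among the cysteine cathepsins, Ctsl (ENSMUSG00000021477, chromosome 13, 64359337 to 64370890, minus strand, GRCm38) encodes cathepsin L, a broad endopeptidase. Its level ran from 36.03 FPKM through a median of 103 to 205 in pEPI cells, and from 129.7 through 263 to 568 in pPrE cells. The branches overlapped, but only at their edges: 14 pPrE cells were above every pEPI cell, 19 pEPI cells were below every pPrE cell, and all 23 pPrE cells were above the pEPI median. The means were 103 ± 39.6 FPKM (SD, n = 25 cells) and 269 ± 120.0 FPKM (SD, n = 23 cells), a log2 ratio of 1.38. A pPrE cell had the higher value in 96.3% of all pairs of 1 pEPI and 1 pPrE cell, and within the well letters the ratio ran from 0.80 to 1.83. The summed counts were 68632 and 174293, so counting error is below 1% of either.

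Ctsb encodes cathepsin B, an endopeptidase that also removes dipeptides from the end of a chain. Its level ran from 20.9 FPKM through 39.8 to 107 in pEPI and from 26.8 through 57.6 to 107 in pPrE cells, over nearly the same range. The means of 45.2 ± 21.2 and 57.3 ± 18.9 FPKM gave a log2 ratio of 0.34, which is less than its SD over the well letters (0.50). The ratio was above 0 in 5 of the 6 letters, and 21 of 23 pPrE cells were above the pEPI median.

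Ctsz, which encodes the carboxypeptidase cathepsin Z, was the most uneven of the 9. It had no count in 7 of 25 pEPI and 5 of 23 pPrE cells, and was detected in 36 of 48 (75.0%, exact binomial 95% interval 60.4% to 86.4%). Its level ran from 0 through a median of 8.80 to 99.4 FPKM in pEPI and from 0 through 16.9 to 147 in pPrE cells, and so the branches overlapped over nearly the whole range. The means were 18.7 ± 25.5 and 36.2 ± 44.6 FPKM, with the SD above the mean in each branch. The log2 ratio of 0.95 was above 0 in 4 of 6 letters, ran from -2.76 to 7.07 within them, and was 0.74 without well F6.

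Ctsc encodes cathepsin C, or dipeptidyl peptidase 1, which activates the granule serine proteases of blood cells. Its level ran from 4.74 FPKM through 90.1 to 241 in pEPI and from 10.01 through 43.5 to 153 in pPrE cells. The ranges overlapped widely, with 3 pEPI cells above every pPrE cell and 21 of 25 pEPI cells above the pPrE median. The means of 99.4 ± 58.6 and 54.2 ± 40.3 FPKM gave a log2 ratio of -0.87, which was below 0 in all 6 letters (from -1.69 to -0.37).

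Ctsh encodes cathepsin H, an aminopeptidase. It had 7 counts in all, 3 in pEPI and 4 in pPrE cells, with a count in 6 of 48 cells (12.5%, exact binomial 95% interval 4.73% to 25.3%) and at most 2 in a cell. At this depth no difference between the branches was detectable, and no ratio is given. Of the other 16 cathepsin genes looked up, 12 had no count in any cell; Ctso had a count in 11 cells, Ctsf in 6, and Ctsk and Ctsw in 1 cell each, and none passed the filter.

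Of the proteases outside the cysteine cathepsins, Ctsd (ENSMUSG00000007891, chromosome 7, 142375911 to 142388038, minus strand) encodes cathepsin D, the main aspartic endopeptidase of the lysosome. Its level ran from 88.3 FPKM through 223 to 389 in pEPI and from 51.6 through 158 to 257 in pPrE cells. The ranges overlapped in the middle, with 10 pEPI cells above every pPrE cell and 2 pPrE cells below every pEPI cell. The means were 231 ± 88.2 and 157 ± 51.7 FPKM, a log2 ratio of -0.56 that was below 0 in all 6 letters (from -1.17 to -0.21). A pEPI cell had the higher value in 75.3% of pairs.

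Ctsa encodes cathepsin A, a carboxypeptidase that also protects lysosomal galactosidase and neuraminidase from degradation. It ran from 61.0 FPKM through 114 to 184 in pEPI and from 74.9 through 107 to 159 in pPrE cells, with means of 117 ± 34.04 and 112 ± 23.6 FPKM and a log2 ratio of -0.07. Lgmn encodes legumain, which cuts after asparagine and helps process cathepsins to their mature 2-chain forms. It ran from 5.04 FPKM through 36.7 to 72.0 in pEPI and from 1.76 through 37.1 to 157 in pPrE cells. The branch medians of Lgmn were nearly equal, while 4 pPrE cells lay above every pEPI cell, and its means were 35.4 ± 21.4 and 49.6 ± 36.3 FPKM. Its log2 ratio of 0.48 was above 0 in 5 of 6 letters and was 0.33 without well F6.

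Lamp1 and Lamp2 encode the heavily glycosylated proteins that line the lysosomal membrane, and a splice form of Lamp2 is the receptor of chaperone-mediated autophagy. Lamp1 ran from 185 FPKM through 326 to 448 in pEPI and from 187 through 337 to 572 in pPrE cells, with means of 332 ± 75.2 and 341 ± 95.9 FPKM. The log2 ratio was 0.04 and fell on both sides of 0 among the letters (3 above). Lamp2, on the X chromosome, was detected in 47 of 48 cells. With its summed exons (9552 bases) as length, it ran from 0 through 10.6 to 59.8 FPKM in pEPI and from 1.96 through 8.03 to 23.9 in pPrE cells. Its means of 14.9 ± 12.1 and 9.06 ± 5.05 FPKM gave a log2 ratio of -0.72, below 0 in all 6 letters and -0.52 without well F3.

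Ordered by mean FPKM over 48 cells, the members ran Lamp1 (336 ± 84.9), Ctsd (196 ± 81.4), Ctsl (183 ± 121), Ctsa (115 ± 29.3), Ctsc (77.8 ± 55.1), Ctsb (51.0 ± 20.8), Lgmn (42.2 ± 30.02), Ctsz (27.1 ± 36.6), Lamp2 (12.1 ± 9.79) and Ctsh (0.0105 ± 0.0352). Only Lamp1 and Ctsd, and Lamp2 and Ctsh, differed from their neighbour by more than the larger SD; Lamp1 was above Ctsd in 44 cells, while Ctsd was above Ctsl in 27. Lamp1 and Ctsa also varied least, with a coefficient of variation of 0.253 and 0.256, against 0.659 for Ctsl. The order rests on the length assigned to each gene. The exons of Ctsl add up to 6489 bases because 1 weakly supported transcript is long, and with the length of its well supported transcript (1971 bases, and likewise the shortest such coding transcript for each member) Ctsl came first at 602 ± 397 FPKM, before Lamp1 at 404 ± 102. Lamp2, whose exons add up to 9552 bases, then moved from place 9 to place 6, at 65.4 ± 52.9 FPKM with a transcript of 1769 bases. The order also depends on the branch: with these lengths Lamp1 came before Ctsl in pEPI (398 ± 90.2 and 341 ± 130.4) and after it in pPrE cells (409 ± 115 and 886 ± 395). With the summed exons Ctsl came after Lamp1, Ctsd and Ctsa in pEPI and directly after Lamp1 in pPrE cells. A change of length moves both branches alike and leaves the ratios as they are.

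The make-up of the protease transcripts shows the same difference within each cell. With the summed exons as lengths, the summed FPKM of the 8 protease genes was 651 ± 165 in pEPI and 735 ± 160 in pPrE cells, less than 1 SD apart. Ctsl made up 16.5% ± 6.65 of that sum in pEPI and 35.6% ± 9.88 in pPrE cells, while Ctsd made up 35.3% ± 10.6 and 22.3% ± 8.29, and Ctsc 14.4% ± 6.27 and 7.58% ± 5.97. With the shorter transcript lengths the share of Ctsl was 28.97% ± 9.75 and 54.0% ± 11.2, and that of Ctsd 23.9% ± 8.70 and 13.1% ± 5.68. The sum depends on the lengths too, since Ctsl alone then had 341 ± 130 FPKM in pEPI and 886 ± 395 FPKM in pPrE cells. With the summed exons the remaining shares were close, with Ctsa at 18.7% ± 5.70 and 15.7% ± 3.92 and Ctsb at 7.02% ± 2.75 and 7.93% ± 2.55. The log2 difference of Ctsl minus Ctsd with the summed exons, in log2(FPKM + 1), ran from -2.81 through -1.26 to 0.98 in pEPI cells. It ran from -0.78 through 0.71 to 3.07 in pPrE cells. 16 pEPI cells were below every pPrE cell and 9 pPrE cells above every pEPI cell in this difference. Its sign depends on the lengths. The summed exons put Ctsl above Ctsd in only 4 of the 25 pEPI cells and 17 of the 23 pPrE cells. The shorter transcript lengths did so for every pPrE cell and for 15 pEPI cells. The sign also differed with Y-linked counts. With the summed exons, Ctsl was above Ctsd in 0 of 17 pEPI and 6 of 12 pPrE cells that had such counts. In cells without them it was above Ctsd in 4 of 8 pEPI and 11 of 11 pPrE cells. The shares were not split in this way.

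Cells with and without counts on Y-linked genes were not spread evenly over the branches. Counts on 4 such genes split the cells without overlap, with at most 1 count in 19 cells and at least 242 in the other 29; 17 of 25 pEPI cells (68.0%) and 12 of 23 pPrE cells (52.2%) had them. Since there were 3 embryos, presence of a Y chromosome and the embryo of origin cannot be told apart. Over both branches, cells without Y-linked counts were higher in Ctsl (log2 ratio to cells with them 0.88) and Ctsz (0.96) and lower in Ctsd (-0.83) and Ctsc (-1.11). The remaining 5 genes, X-linked Lamp2 among them at -0.06, were within 0.23 of 0. All of these ratios pool the branches, which differ in their share of such cells. Within pEPI the mean of Ctsz was 19.6 ± 21.4 FPKM with and 16.9 ± 34.2 FPKM without Y-linked counts. Within pPrE it was 19.9 ± 24.6 and 54.0 ± 55.1 FPKM. The means of Ctsl, Ctsd and Ctsc, given below, kept the pooled direction in each branch.

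Ctsl differed between the branches on both sides of that split. Among cells with Y-linked counts its means were 93.8 ± 37.7 (n = 17 pEPI cells) and 199 ± 57.6 FPKM (n = 12 pPrE cells), a log2 ratio of 1.08. Among cells without them the means were 124 ± 37.8 (n = 8) and 346 ± 125 FPKM (n = 11), a ratio of 1.48. The difference in Ctsd was found on 1 side only: with Y-linked counts its means were 278 ± 60.4 and 180 ± 38.8 FPKM (-0.63), and without them 133 ± 45.98 and 133 ± 54.4 FPKM (-0.00). Among pEPI cells Ctsd ran from 183 to 389 FPKM with Y-linked counts and from 88.3 to 199.7 without, and 2 cells of each kind lay in the overlap. Ctsc behaved like Ctsd, with means of 124 ± 54.1 and 62.9 ± 49.5 FPKM (-0.98) in cells with Y-linked counts and 47.3 ± 22.5 and 44.8 ± 26.3 FPKM (-0.08) in cells without. In letter D, which holds no cell with Y-linked counts, 2 pEPI against 6 pPrE cells gave -0.52 for Ctsd and -0.49 for Ctsc. Whether the ratios differ between the 2 kinds of cells was not tested. Lamp2 kept its direction in both (-0.60 and -0.90), Lgmn likewise (0.35 and 0.77), and Ctsz had 0.02 with and 1.68 without Y-linked counts. In cells with Y-linked counts 1 of the 9 members was higher by at least 0.5 and 3 were lower, against 13.5% and 18% of genes. In cells without them 4 were higher and 1 was lower, against 20.1% and 20.4%.

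**Figure D2:**
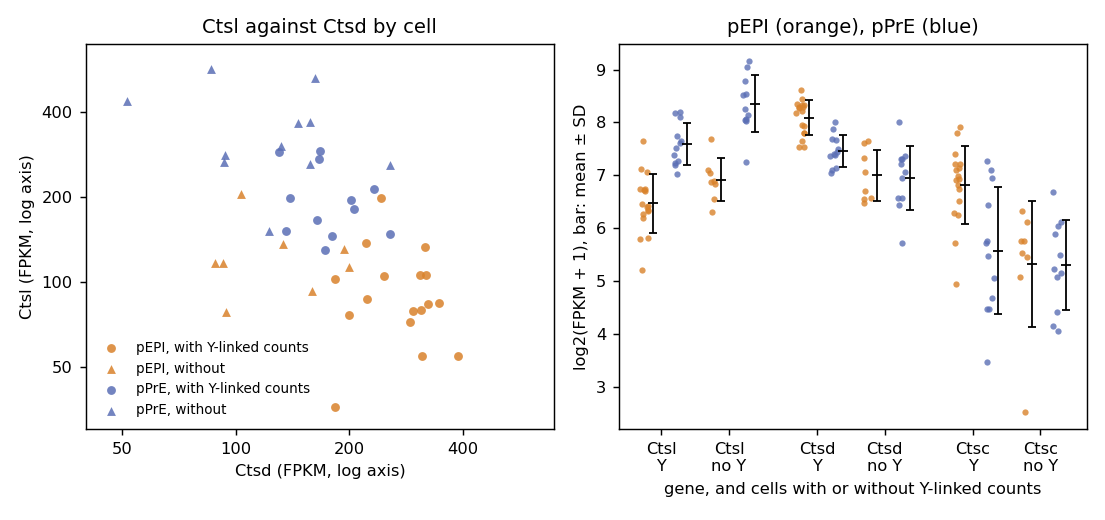
Left, Ctsl against Ctsd in FPKM on log axes, 1 point per cell, with colour for the branch and triangles for cells without Y-linked counts; right, log2(FPKM + 1) of Ctsl, Ctsd and Ctsc by branch in cells with (Y) and without (no Y) Y-linked counts, with bars for mean ± SD. Ctsl separates the branches in both kinds of cells, while the pEPI cells with high Ctsd and Ctsc are those with Y-linked counts.

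**Figure D3:**
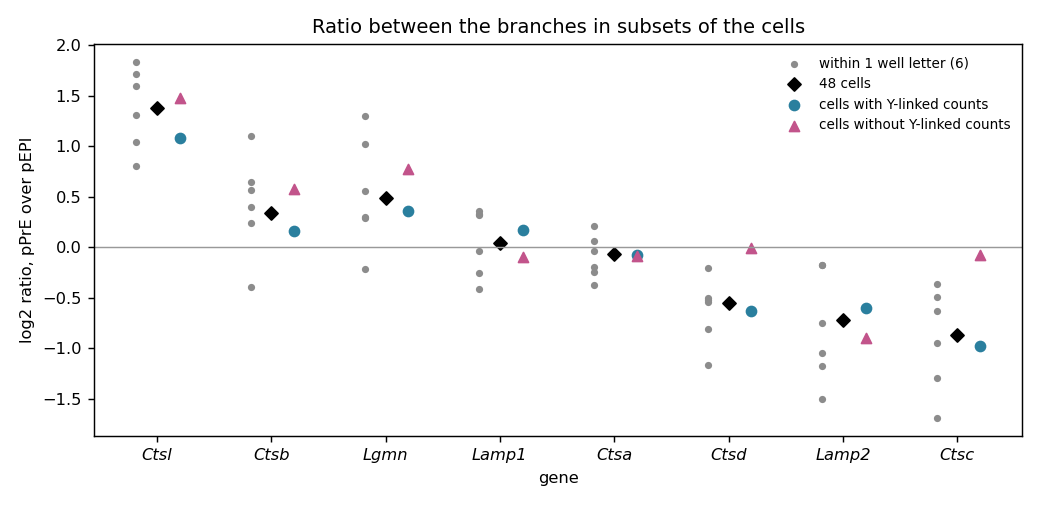
The log2 ratio of mean FPKM in pPrE over pEPI (vertical axis) for 8 genes (horizontal axis; Ctsz, with letters from -2.76 to 7.07, and Ctsh are left out), in all 48 cells (diamonds), within each of 6 well letters (grey points), and in cells with (circles) and without (triangles) Y-linked counts. Ctsl lies above 0 and Lamp2 below 0 in every subset, whereas Ctsd and Ctsc reach 0 in cells without Y-linked counts.

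The 9 genes did not vary as a block from cell to cell. Over 48 cells the median Spearman correlation of their 36 pairs was -0.01, with 18 pairs above 0 (0.06 and 22 pairs with branch means removed), beside a median of 0.00 over all 39859056 pairs of genes that passed the filter, 5% of which lay below -0.26 and 5% above 0.26. Points share the library of the cell, its depth and, in part, its branch, so values are also given with the branch means removed. The lowest was Ctsl with Ctsd, at -0.56 (-0.39 with branch means removed; -0.34 within pEPI and -0.49 within pPrE), and Ctsl with Ctsc had -0.40 (-0.13 with branch means removed). In cells with Y-linked counts Ctsl with Ctsd had -0.59, and in cells without -0.17.

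The highest correlations paired different proteases. Ctsl with Ctsb had 0.50 (0.37 with branch means removed), with 0.69 within pEPI and -0.04 within pPrE. Ctsd with Ctsc also had 0.50 (0.31 with branch means removed), with 0.64 within pEPI and -0.07 within pPrE. Ctsz with Lgmn had 0.46, and this changed little with branch means removed (0.45) or within each branch (0.34 and 0.51). Lamp1 had no such partner among all cells, its highest value being 0.28 with Ctsd (0.34 with branch means removed), though within pPrE cells that pair had 0.66. In cells with and without Y-linked counts, Ctsd with Ctsc had 0.32 and 0.16, and Lamp1 with Ctsd had -0.01 and 0.15. By the same split, Ctsl with Ctsb had 0.51 and 0.55, and Ctsz with Lgmn had 0.37 and 0.54. With the total count of a cell the 9 genes correlated between -0.29 and 0.26, and with its mitochondrial share between -0.18 and 0.25.

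**Figure D4:**
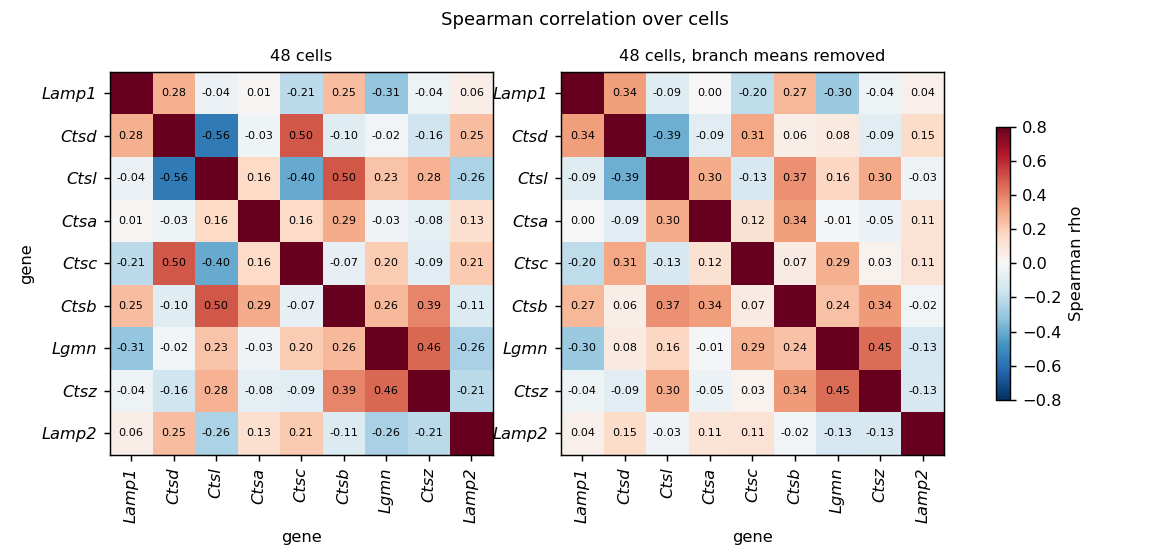
Spearman correlation of each pair of the 9 genes that passed the filter, over 48 cells (left) and over 48 cells with branch means removed (right); both axes list the genes in order of mean FPKM, red is positive and blue negative. Ctsl with Ctsd is the lowest value in both panels (-0.56 and -0.39), and Ctsz with Lgmn keeps its value.

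A score of pPrE minus pEPI marker genes correlated with Ctsl at 0.70 over all cells and at 0.12 with branch means removed, so most of that correlation lay between the branches. Ctsc had -0.10 over all cells but 0.51 with branch means removed. Ctsb (0.51 and 0.37) and Lgmn (0.38 and 0.43) followed the score in both. For Ctsc the correlation was 0.60 within pEPI and 0.42 within pPrE. The score itself differed with Y-linked counts. Its median in pEPI was -0.39 with and -1.86 without them, and mean Ctsc there was 124 and 47.3 FPKM. In pPrE the medians were 1.04 and 1.39, with mean Ctsc at 62.9 and 44.8 FPKM. The part of that split in the 0.51 of Ctsc was not tested. By Spearman correlation over 48 cells, the 5 genes nearest to Ctsl were Serpinh1 (0.82, and 0.47 with branch means removed), Foxq1 (0.80 and 0.41), Tfpi (0.80 and 0.56), Glipr2 (0.79 and 0.38) and Ckap4 (0.79 and 0.58). Serpinh1 encodes a collagen chaperone of the endoplasmic reticulum and Tfpi an inhibitor of tissue factor. The nearest gene to Ctsb was Lama1 (0.64 and 0.64), a laminin chain of the basement membrane, and to Ctsd Serinc3 (0.84 and 0.80). Those nearest to the other members were Tmem98 for Ctsz (0.64 and 0.61), Cog8 for Ctsa (0.48 and 0.50), Gm38100 for Ctsc (0.64 and 0.52), Pard3 for Lgmn (0.56 and 0.57), Sh3bp4 for Lamp1 (0.59 and 0.58) and Zmiz1 for Lamp2 (0.68 and 0.58). Removing the branch means leaves differences by Y-linked counts in place, and their part in the correlations of these nearest genes was not tested.

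Beside the members, 123 other lysosomal and autophagy genes on 9 lists passed the filter. Their median log2 ratio was -0.11, with 4 higher in pPrE (3.25%, against 11.7% of all genes) and 17 lower (13.8%, against 15.3%), so the share lower was near that of all genes. The lower ones were mostly acid hydrolases: of 29 glycosidases, sulfatases, lipid and other hydrolases, 11 were lower by at least 0.5 (37.9%) and 1 was higher (3.45%), with a median of -0.41. Over all genes the shares were 15.3% and 11.7%. Of these 11, 7 were below 0 in all 6 letters and 8 were lower by at least 0.5 both in cells with and in cells without Y-linked counts. Over all 29, cells with Y-linked counts gave 14 lower and 0 higher, against 18% and 13.5% of genes. Cells without them gave 11 lower and 4 higher, against 20.4% and 20.1%, and the list medians were closer to 0 there, at -0.14 for the glycosidases and sulfatases and -0.22 for the lipid and other hydrolases.

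Among 14 glycosidases and sulfatases (median -0.35), the lowest ratios were Manba, a mannosidase, at -1.88 (3.81 ± 3.97 FPKM in pEPI and 1.03 ± 2.57 in pPrE cells) and Ids, the X-linked iduronate sulfatase, at -0.88. The highest were Gusb, beta-glucuronidase, at 0.84 and Hexa, a hexosaminidase subunit, at 0.41 (162 ± 50.2 and 216 ± 72.1 FPKM). Among 15 lipid and other hydrolases (median -0.48), 7 were lower and none was higher by at least 0.5. The lowest were Dnase2a, an acid nuclease, at -1.26 and Gm2a, the activator of ganglioside breakdown, at -1.18 (30.7 ± 24.1 and 13.5 ± 10.6 FPKM), and the highest was the phospholipase Pla2g15 at 0.43.

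The cystatins, inhibitors of cysteine cathepsins, had 4 genes that passed (median -0.22). Cst3, which encodes the secreted cystatin C, was higher in pPrE at 132 ± 71.8 and 191 ± 85.7 FPKM (0.53), the direction of Ctsl. Cstb, the cytosolic cystatin B, was at 654 ± 148 and 646 ± 161 FPKM (-0.02), and Stfa1 and Cst7 had -0.42 each with an SD above the mean.

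Over all 48 cells, no gene of the machinery that acidifies and supplies the lysosome reached a log2 ratio of 0.5, among those that passed the filter on low values. None of 16 subunits of the vacuolar ATPase, the proton pump of the lysosome, reached a log2 ratio of 0.5 in either direction, with a range from -0.36 (Atp6v1c1) to 0.15 (Atp6v0a2); Atp6ap1 had -0.31 and Atp6v0a1 0.12. In cells without Y-linked counts 2 of the 16 were lower (Atp6v1c1 at -0.56 and Atp6v1a, chosen after its value was seen, at -0.79) and 1 was higher (Atp6v0a1 at 0.57), and in cells with them none was. None of 25 genes of sorting to the lysosome did, from Vps33a (-0.48) and Vps26a (-0.40) to Gnptg (0.46) and Gnptab (0.47), the latter pair belonging to the enzyme that makes the mannose 6-phosphate tag. The median of these 25 was -0.31 in cells with and 0.04 in cells without Y-linked counts. None of 14 genes of lysosomal transcription and nutrient sensing did, from Tfe3 (-0.30) and Fnip1 (-0.24) to Flcn (0.45) and Mtor (0.46). Of 16 other membrane proteins and transporters (median -0.02), Slc17a5, which exports sialic acid, was higher at 1.14, Npc1, the cholesterol transporter, had 0.31, and Laptm4b (-0.60), Cln3 (-0.53) and 1 more were lower. Of 19 autophagy genes (median -0.14), Rb1cc1 was higher (0.55), Gabarap had 0.47, and 3 were lower, with Sqstm1 (-0.75) and Atg9a (-0.74) at the end of the order. Of these 3, 0 were lower by at least 0.5 both in cells with and in cells without Y-linked counts. Sqstm1 had -1.08 with and 0.25 without them, and Atg9a -0.87 and 0.51.

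**Figure D5:**
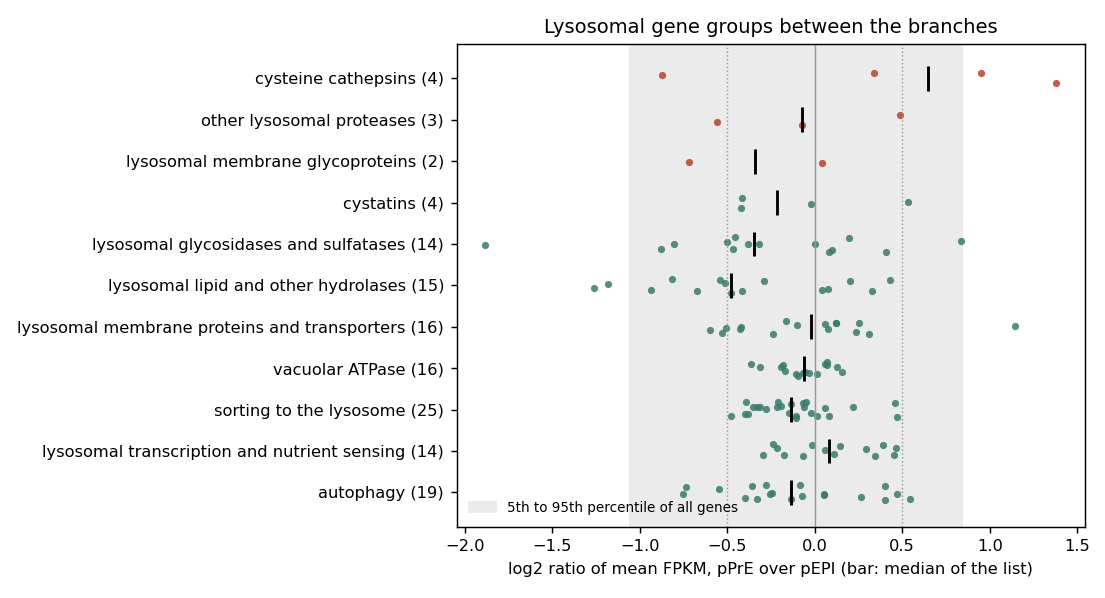
Each point is 1 gene that passed the filter, placed by its log2 ratio of mean FPKM in pPrE over pEPI (horizontal axis) and by its list (vertical axis, number of genes in brackets); red points are the members, green points other lysosomal genes, black bars list medians, dotted lines ±0.5 and grey the range from the 5th to the 95th percentile of all genes. The hydrolase lists lie mostly below 0, the vacuolar ATPase lies within ±0.5, and Ctsl is the farthest to the right.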

How the data were processed

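The authors aligned Smart-seq2 reads to mm10 and counted them on Ensembl 87 genes with htseq-count; STAR and HTSeq are named in the submitters' notes, with versions not given in the sources used here. The deposited values are raw counts per gene. FPKM was computed here from these counts, the union of exons in GENCODE M21 (GRCm38) and library sizes by the median of ratios over 3665 genes counted in every cell, and log2 values used a pseudocount of 1. Genes with a mean log2(FPKM + 1) above 1 were compared (8929). Branches were read by eye from the study's dendrogram. The scde test that the study ran over cells was left out, since cells of 1 sample are not replicates. Alternatives, edgeR TMM library sizes among them, are given in the closing section. Counting intervals (exact, 95%) cover counting error only. Reads without strand cannot be assigned where Ctsb overlaps Fdft1, Ctsz Nelfcd, Ctsa Neurl2 and Pltp, Ctsc Gm26522, Lamp1 Grtp1 and Ctsl Gm47123 on the opposite strand; Ctsl also overlaps the pseudogene Gm49230 and Ctsd Gm49369 on its own strand.

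The members and lists were chosen with earlier results of these data known. Named genes are the members, the 2 highest and 2 lowest ratios of each list, lineage markers, and the genes nearest by Spearman correlation (5 for Ctsl, 1 for each other member); an item that this rule names is not reported here. Promoter windows are from RefSeq. The steps were tested on simulated data. R 4.3.3 with edgeR 4.0.16 and Python 3.11.15 with scipy 1.17.1, numpy 2.4.6, matplotlib 3.10.9 and pandas 2.3.3 were used.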

Additional observations from a re-analysis of the deposited data

How the results depend on the processing

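Counts and ratios were recomputed under 47 alternatives fixed with the design and 1 chosen after seeing the data (transcript length), and no ratio of a member past 0.5 changed sign. The count of members higher in pPrE, 2 as reported, was 4 with the cells regrouped by Ward clustering, 1 in cells with Y-linked counts, 4 in cells without them and 1 at a log2 threshold of 1; leaving out 1 well letter at a time gave 2 to 3, and library sizes by TMM, thinning, median log2 values, the marker score and a mean over letters gave 3. The count lower, 3 as reported, was 1 with a difference of median log2 values, 1 with Ward clustering, 1 in cells without Y-linked counts and 0 at a threshold of 1. It was 2 with the ratio of summed counts, a difference of mean log2 values, the marker score, or without letter D (where Ctsd had -0.48), and 3 without each other letter. Ward clusters matched the branch in 39 of 48 cells, and the sign of a marker score in 45. The ratio of Ctsc was -0.10 under Ward clustering and -0.08 in cells without Y-linked counts, where that of Ctsd was -0.00; the cause was not tested. Ctsl ran from 1.08 to 1.54 over its alternatives, Ctsb from 0.16 to 0.72, Lgmn from 0.01 to 0.77, Lamp2 from -0.90 to -0.37 and Ctsz from 0.02 to 1.84. The median pairwise correlation, -0.02 over 45 pairs, was 0.049 in cells without Y-linked counts and 0.051 without well letter E. In cells without Y-linked counts the list medians of sorting (0.04), autophagy (0.04) and cystatins (0.11) turned positive, and none of the other 5 changed sign under its 4 alternatives. At a minimum of 10 counts Ctsh was detected in 0 cells.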

Other observations

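Several abundant genes of the hydrolase lists, chosen after their values were seen, shared the direction of Ctsd but kept it in both kinds of cells. Psap, the precursor of the saposins that help break down sphingolipids, had 458 ± 193 FPKM in pEPI and 260 ± 152 FPKM in pPrE cells, a log2 ratio of -0.82, with -0.79 in cells with and -0.76 in cells without Y-linked counts. Grn, which encodes progranulin, had 61.2 ± 25.6 and 32.03 ± 19.8 FPKM (-0.93; -0.76 and -1.18). Scpep1, a serine carboxypeptidase like Ctsa, had 77.5 ± 34.9 and 48.5 ± 24.7 FPKM (-0.67; -0.64 and -0.74). Each of these 3 was below 0 in all 6 well letters.

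Among the genes whose levels followed Ctsd most closely was Dppa3, a maternal factor that guards imprinted loci, also named after its values were seen. It had a Spearman correlation of 0.77 with Ctsd over 48 cells and 0.69 with branch means removed, and its levels were 1374 ± 375.1 FPKM in pEPI and 958 ± 414 FPKM in pPrE cells. Ctsd itself differed with Y-linked counts, and the part of that split in these correlations was not tested.

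The share of genes with GTCACGTG in their start window was 14.5% over the 145 list genes with a RefSeq start (21 genes), beside 2.55% of all genes. By list, it was 31.2% for the glycosidases and sulfatases and 40% for sorting to the lysosome. Of 15 lipid and other hydrolases, the list with the lowest median ratio, 0 had it. Whether the motif goes with the ratio between the branches was not tested.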
